A study of Homo sapiens with 6 samples.

Results

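The clustered histone genes are the human genes for linker histone H1 and the core histones H2A, H2B, H3 and H4 that lie together in a few chromosomal clusters. They were taken from the deposited table by symbol, as every gene name that starts with HIST1H, HIST2H, HIST3H or HIST4H and does not end in the pseudogene marks PS or P with a digit. This rule gave 74 of 60027 genes and set aside 15 pseudogene names. The 74 comprised 6 H1, 17 H2A, 22 H2B, 14 H3 and 15 H4 genes. By name, 55 belong to HIST1 on chromosome 6, 14 to HIST2 and 4 to HIST3 on chromosome 1, and 1 to HIST4 on chromosome 12 (GENCODE 29, GRCh38). HIST2H2BA and HIST2H2BB lie at bases 121108210 to 121117257 and 143875171 to 143904650 of chromosome 1. They stand apart from the other HIST2 genes, which lie at 149782689 to 149887916. The rule used names only and no measured level. GENCODE 29 lists 4 of the 74 as pseudogenes all the same, HIST2H2BA, HIST2H2BB, HIST2H2BD and HIST3H2BA.

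Gene levels came from RNA sequencing of NCI-H292, a human lung mucoepidermoid carcinoma cell line. The long noncoding RNA SH3PXD2A-AS1 was the labelled target of the knockdown, and a knockdown group of 3 libraries was set against a negative control group of 3 libraries, which the series text calls a vector control. The labels and series text do not describe the knockdown reagent, its delivery, the time of harvest or any cloning of cells, and name no treatment other than the knockdown for either group. Separate cultures are not stated for the libraries within a group, and the p-values then reflect only library-to-library spread, possibly technical in origin.

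Most clustered histone genes are made only while DNA is copied. Their messages carry no intron and no poly(A) tail and end just after a stem-loop, which stem-loop binding protein (SLBP) holds and the U7 small nuclear RNP uses to place the cut. In cells that leave the cycle, some of these genes are instead read through the stem-loop to a poly(A) site further on, and these tailed forms are kept by selection on oligo(dT) beads, the method used for these libraries. Replacement histones such as H1F0 and H3F3B lie outside the clusters, are made throughout the cycle and carry a tail. Tailed and untailed forms of a histone message are not measured apart here, and in bulk RNA fewer cells that make a message cannot be told apart from less message per cell.

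The stem-loop is shown first because it separates the messages that end at it from those that run past it. The letters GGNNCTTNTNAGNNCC, read on the transcript strand, occurred in a GENCODE 29 transcript of 34 of the 74 genes, against 185 of all 58676 annotated genes (0.315%). In the lines below the 16 bases of the stem-loop are in capitals with 5 bases on either side, in DNA letters, 5′ to 3′.
HIST2H2BE: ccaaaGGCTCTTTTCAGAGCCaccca
HIST3H2BB: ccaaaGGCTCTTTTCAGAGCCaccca
HIST3H2A: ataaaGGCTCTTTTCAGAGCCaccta
HIST2H2AA4: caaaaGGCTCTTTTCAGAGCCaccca
HIST1H2AC: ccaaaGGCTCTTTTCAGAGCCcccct
HIST1H2BC: ccaaaGGCTCTTTTAAGAGCCaccca
HIST1H4H: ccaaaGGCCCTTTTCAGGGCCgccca
HIST2H4A: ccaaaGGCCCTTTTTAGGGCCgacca
The form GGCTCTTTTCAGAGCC stood in 18 genes of the H2A, H2B and H3 types, and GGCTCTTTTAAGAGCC in 5, HIST1H2BC and HIST1H2BD among them. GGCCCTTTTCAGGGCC stood in 5 genes and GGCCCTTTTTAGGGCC in 3, all of them H4 genes. The annotated transcript ran on for 1729 bases after the stem-loop in HIST2H2BE, 1917 in HIST3H2BB, 390 in HIST3H2A, 1128 in HIST1H2AC, 116 in HIST1H2BC and 1655 in HIST1H4H, but for only 35 in HIST2H2AA4. Of the genes without a match, 32 are annotated with the coding sequence alone, which cannot hold the stem-loop.

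Many H2A and H2B genes stand in divergent pairs whose starts lie close together, and the promoters of 3 called H2B genes are shown because the motifs in them differ. Each line holds 250 bases before and 50 after the RefSeq start on GRCh38.p14, 5′ to 3′ on the gene's strand, with 3 promoter motifs in capitals wherever they occur on either strand. The octamer found in many histone promoters was searched as ATTTGCAT. For the TATA box, the letters searched were TATAAA. The third motif was the CCAAT box, whose letters are its name. HIST2H2BE lies at chr1:149886633-149886932 on the minus strand, HIST1H2BC at chr6:26123877-26124176 on the minus strand and HIST3H2BB at chr1:228457853-228458152 on the plus strand.
HIST2H2BE: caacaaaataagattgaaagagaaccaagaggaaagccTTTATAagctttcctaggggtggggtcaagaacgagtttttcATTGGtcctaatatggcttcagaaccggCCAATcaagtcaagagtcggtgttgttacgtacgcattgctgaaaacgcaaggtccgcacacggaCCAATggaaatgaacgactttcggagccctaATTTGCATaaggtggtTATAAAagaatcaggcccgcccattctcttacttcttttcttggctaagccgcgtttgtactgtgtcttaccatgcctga
HIST1H2BC: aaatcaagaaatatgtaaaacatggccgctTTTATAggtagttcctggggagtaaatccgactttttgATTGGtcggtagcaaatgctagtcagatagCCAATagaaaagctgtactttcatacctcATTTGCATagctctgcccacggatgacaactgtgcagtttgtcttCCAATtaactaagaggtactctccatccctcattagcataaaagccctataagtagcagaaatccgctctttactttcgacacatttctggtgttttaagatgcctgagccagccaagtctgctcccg
HIST3H2BB: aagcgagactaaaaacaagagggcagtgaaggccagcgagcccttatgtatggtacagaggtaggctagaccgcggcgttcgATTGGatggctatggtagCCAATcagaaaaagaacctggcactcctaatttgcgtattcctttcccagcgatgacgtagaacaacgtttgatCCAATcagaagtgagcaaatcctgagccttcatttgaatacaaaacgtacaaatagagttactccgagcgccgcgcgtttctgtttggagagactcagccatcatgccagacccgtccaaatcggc
The HIST2H2BE and HIST1H2BC windows hold the letters of all 3 motifs, while in the HIST3H2BB window only the CCAAT box was found. In HIST1H2BC the TATA letters stand only on the other strand. That stretch also lies in the window of its divergent partner HIST1H2AC, on the strand of HIST1H2AC. RefSeq promoters were matched for 61 of the 74 genes. The octamer stood in 11 of 14 H2A and 14 of 18 H2B promoters, in 1 of 10 H3 promoters, HIST1H3D, whose window is the same as that of HIST1H2AD, and in none of the 6 H1 or 13 H4 promoters, against 1.77% of all 35116 RefSeq promoters. Windows of divergent partners can overlap, so the H2A and H2B counts can include the same octamer for both partners. On either strand and anywhere in the window, the TATA letters stood in 65.6% of the histone promoters (11.5% of all). A CCAAT box stood in 83.6% (34.6% of all). All H1, H2A, H2B and H3 promoters matched held a CCAAT box, and 3 of 13 H4 promoters did. Of the genes that rose in the test below, 8 had a promoter in the table, and the octamer stood in 4 of these 8 and in 6 of the 12 tested genes with a promoter that were not called.

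SH3PXD2A-AS1 itself had a transcripts-per-million level (TPM, reads per gene length scaled to the library) of 0.37, 0.68 and 0.44 in the knockdown libraries, against 0.96, 0.75 and 0.51 in the control libraries. The groups overlapped, with means of 0.497 ± 0.163 and 0.740 ± 0.225 (SD, n = 3 each), and the difference did not pass (exact two-sided permutation test, p = 0.2, with 3 against 3 libraries unable to go below 0.1). Genes of mitochondrial DNA held 7.2 to 7.4% of TPM in knockdown libraries and 10.7 to 10.9% in control libraries. Their part in the results below was not tested alone, only by rescaling without them and the ribosomal protein genes together. Epithelial markers summed to 3602 to 3690 TPM in knockdown libraries and 3221 to 3320 in control libraries, and 4 of 6 rose. The immune markers summed to 1.23 to 1.97 TPM in knockdown libraries and 1.48 to 1.73 in control libraries with PTPRC listed at 0 throughout, and the endothelial markers to 1.38 to 1.85 and 1.18 to 1.93. The fibroblast markers summed to 23.02 to 26.47 TPM in knockdown libraries and 19.89 to 22.55 in control libraries, with LUM at 0. Most of this sum was COL1A1, at 21.97 to 25.94 TPM in knockdown libraries and 19.56 to 21.95 in control libraries. COL1A2 averaged 0.627 TPM in knockdown and 0.397 in control libraries, and DCN 0 and 0.0933.

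The clustered histone messages were more abundant in the knockdown cells. Their summed level was 720.72, 631.91 and 649.89 TPM in the knockdown libraries, against 428.03, 443.89 and 431.47 TPM in the control libraries. The groups did not overlap, and the means were 668 ± 47.0 TPM and 434 ± 8.34 TPM (SD, n = 3 each), a ratio of 1.54. In all libraries this was a small part of the message pool, 0.0632 to 0.0721% of TPM in knockdown and 0.0428 to 0.0444% in control libraries. No p is given for these sums, because the genes were chosen with earlier results of these data known.

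By histone type the sums were as follows, and no difference between types was tested. H2A genes summed to 454.94, 372.87 and 384.7 TPM in knockdown libraries, against 247.98, 263.88 and 253.81 TPM in control libraries, a ratio of 1.58. H2B genes summed to 163.67, 155.01 and 166.02 TPM in knockdown libraries, against 104.15, 101.02 and 107.13 TPM in control libraries, a ratio of 1.55. H1 genes summed to 60.81, 67.17 and 62.68 TPM in knockdown libraries, against 40.07, 42.56 and 43.79 TPM in control libraries, a ratio of 1.51. For these 3 types every knockdown library lay above every control library.

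H4 genes summed to 35.19, 27.56 and 31.2 TPM in knockdown libraries, against 29.22, 29.05 and 21.32 TPM in control libraries, a ratio of 1.18. H3 genes summed to 6.11, 9.3 and 5.29 TPM in knockdown libraries, against 6.61, 7.38 and 5.42 TPM in control libraries, a ratio of 1.07. Both sums overlapped between the groups. Without the near-identical HIST1H4J and HIST1H4K, a pair set aside after the data were seen, the H4 sum was 27.81, 24.48 and 25.85 TPM in knockdown libraries, against 20.1, 21.39 and 18.53 TPM in control libraries, which did not overlap. H2A genes made up 59.0 to 63.1% of the clustered histone TPM in knockdown libraries and 57.9 to 59.4% in control libraries. H3 genes made up 0.814 to 1.47% and 1.26 to 1.66%. These shares cover RNA of clustered genes only, after oligo(dT) selection. They therefore cannot be set against the equal numbers of the 4 core histone proteins in a nucleosome.

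**Figure D1:**
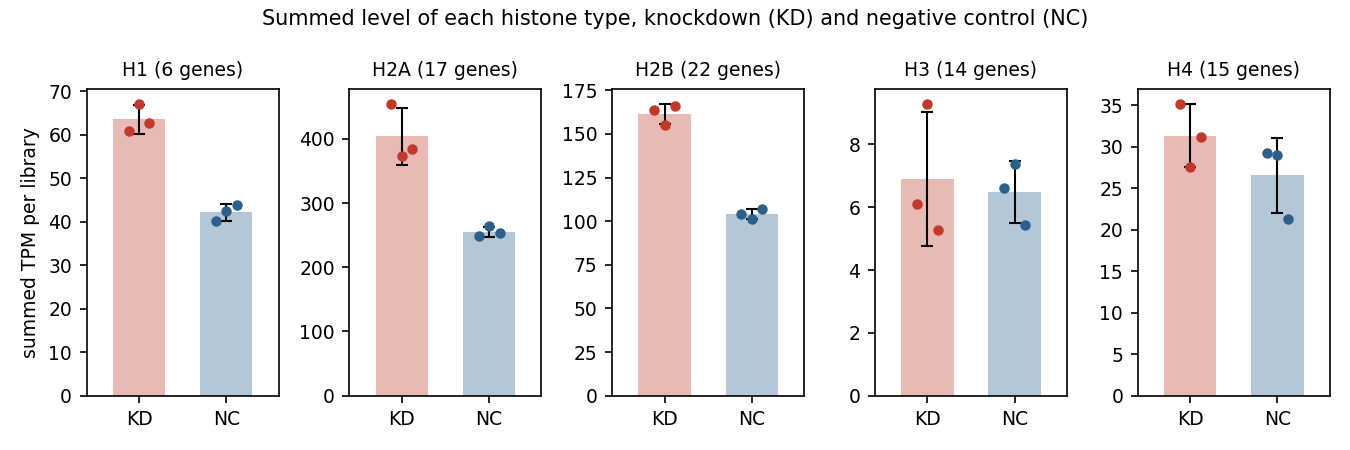
Summed TPM of the genes of each histone type, one panel per type with its own axis from 0. Bars are group means, error bars the SD over 3 libraries and points the libraries, with knockdown (KD) left of negative control (NC). The groups stand apart for H1, H2A and H2B (ratios of 1.51, 1.58 and 1.55) and overlap for H3 and for all 15 H4 genes.

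The 26 genes with a mean of at least 1 TPM over the 6 libraries were tested. Of the other 48, 7 were at 0 in every library. Fold changes are log2 differences of TPM + 1, knockdown minus control, a scale that compresses changes at low levels. With limma fitted over all 15755 genes past this filter and Benjamini-Hochberg adjustment, 9 of the 26 rose at an adjusted p under 0.05 and none fell, while 11.3% of all tested genes rose and 3.47% fell. With median ratio scaling the calls over all genes were 1012 higher and 997 lower in place of 1780 and 547, and 7 histone genes rose and none fell. Among the 26, 15 had an unadjusted p under 0.05, as did 4785 of all tested genes. The fold change was positive for 23 of the 26 (64.6% of all tested genes), and their median was 0.43 against 0.08 for all. In 16 of the 26 all 3 knockdown libraries lay above all 3 control libraries, which held for 26.8% of tested genes, and in none did they lie below (9.66%). All 9 genes that rose had a mean of at least 1 TPM in both groups. For 5 of the 26 one group's mean was under 1 TPM, and none of those 5 was called.

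**Figure D2:**
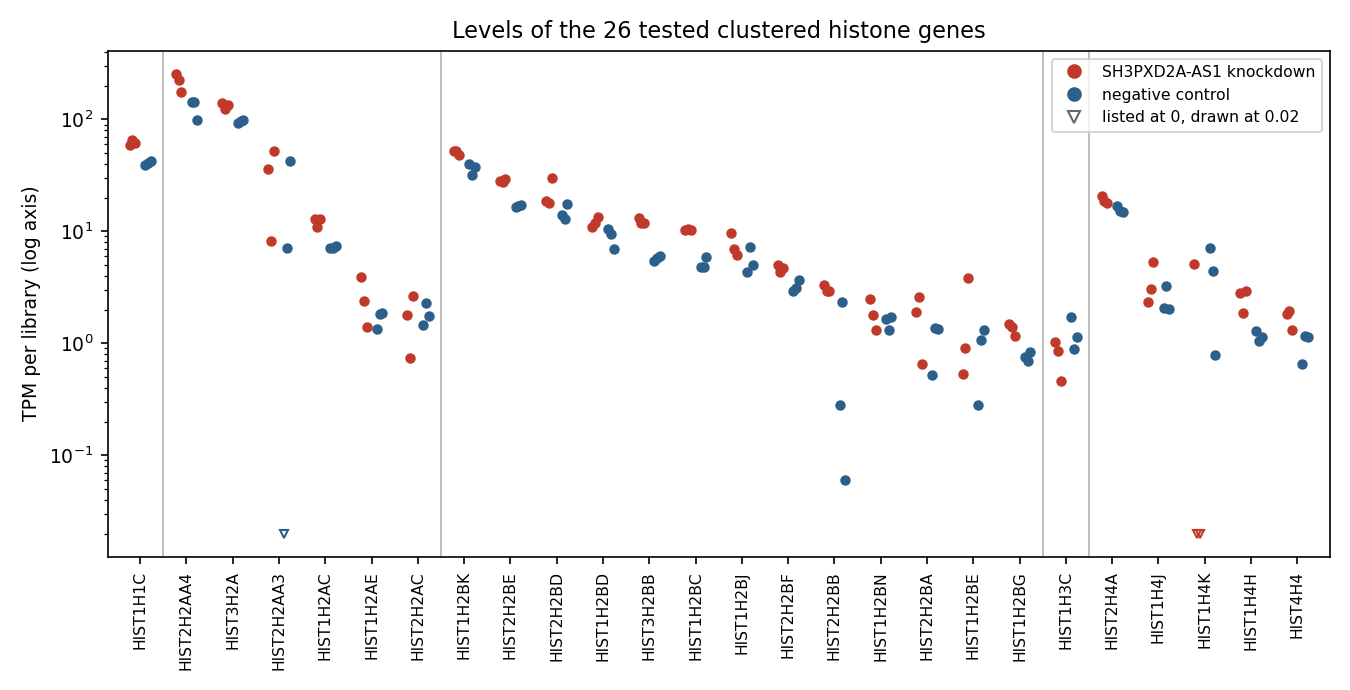
TPM of the 26 tested genes in each library, on a log axis, grouped by histone type from H1 at the left to H4 at the right and ordered by mean level within a type. Knockdown points stand left of control points, and open triangles mark libraries listed at 0, drawn at 0.02. Knockdown points lie above all control points in 16 genes, and HIST2H2AA3 and HIST1H4K are the only 2 with a library at 0.

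Among linker histones, which bind the DNA between nucleosomes, HIST1H1C (H1.2) was the only one past the filter. It had 59.63, 65.28 and 61.59 TPM in knockdown libraries, against 39.3, 40.62 and 42.63 TPM in control libraries. The lowest knockdown library was above the highest control library, and the gene rose by 0.59 on the log2 scale (SE 0.0571, adjusted p = 0.00147). The other 5 H1 genes summed to 1.09 to 1.89 TPM in knockdown libraries and 0.77 to 1.94 TPM in control libraries, which overlapped.

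Among H2A genes, 3 of 6 tested rose. HIST3H2A had 139.51, 123.69 and 135.12 TPM in knockdown libraries, against 92.26, 96.85 and 98.47 TPM in control libraries. The groups did not overlap (log2 fold change 0.46, SE 0.0579, adjusted p = 0.00374). HIST1H2AC had 12.98, 11.02 and 12.84 TPM in knockdown libraries, against 7.05, 7.09 and 7.46 TPM in control libraries. Here too the groups stood apart (log2 fold change 0.69, SE 0.0865, adjusted p = 0.00375).

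The highest level of all 74 genes was that of HIST2H2AA4, which encodes the same protein as its duplicate HIST2H2AA3. HIST2H2AA4 had 255.84, 222.92 and 175.8 TPM in knockdown libraries, against 144.06, 144.23 and 97.89 TPM in control libraries, and rose by 0.76 (SE 0.189, adjusted p = 0.0406). HIST2H2AA3 had 36.02, 8.21 and 52.58 TPM in knockdown libraries, against 0, 7.07 and 42.74 TPM in control libraries (log2 fold change 1.90, SE 1.35, adjusted p = 0.392). The copies cannot be told apart by most reads, since 96.8% of the 100-base windows of the HIST2H2AA4 transcript also stand in another clustered histone gene, as do all of those of HIST2H2AA3. The share of the pair given to HIST2H2AA4 was 87.7, 96.4 and 77.0% in knockdown libraries, against 100, 95.3 and 69.6% in control libraries, so the split varied within each group.

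The sum of the pair was steadier than either copy. It was 291.86, 231.13 and 228.38 TPM in knockdown libraries, against 144.06, 151.3 and 140.63 TPM in control libraries, with no overlap. In a fit with near-identical copies summed, added after the data were seen, the pair rose by 0.77 (SE 0.0972, adjusted p = 0.00387). HIST2H2AA4 alone kept its call in 5 of 16 alternative settings that gave it a value, and lost it without knockdown replicate 1 or 2 or without any 1 of the 3 control replicates (adjusted p over all settings 0.0104 to 0.117). Without the pair, the sum of the remaining 72 genes was 428.86, 400.78 and 421.51 TPM in knockdown libraries, against 283.97, 292.59 and 290.84 TPM in control libraries, a ratio of 1.44.

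**Figure D3:**
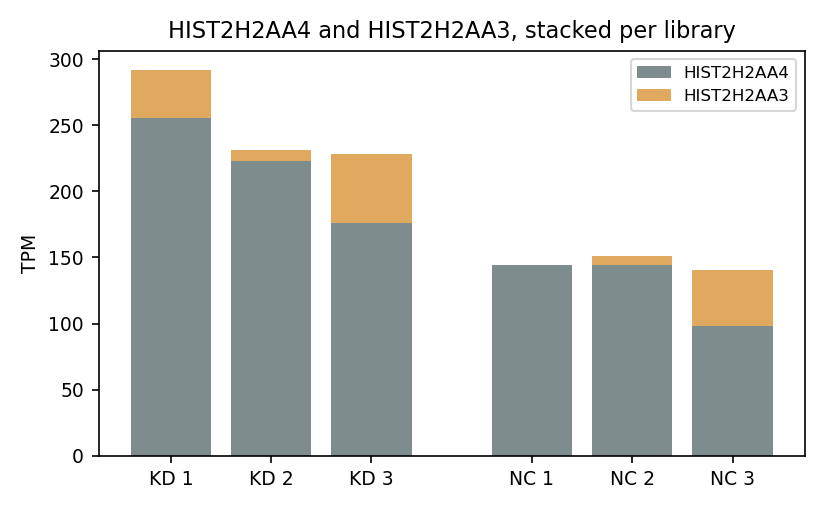
TPM of HIST2H2AA4 (grey) and HIST2H2AA3 (orange) stacked for each library, knockdown (KD) left of negative control (NC), axis from 0. The split between the copies varies within both groups, while the stacked height is 228.38 to 291.86 TPM in knockdown libraries and 140.63 to 151.3 TPM in control libraries.

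The remaining tested H2A genes were low and not called. HIST1H2AE averaged 2.57 ± 1.26 TPM in knockdown libraries and 1.67 ± 0.299 TPM in control libraries, and HIST2H2AC 1.72 ± 0.947 TPM and 1.84 ± 0.423 TPM (SD, n = 3 each). Their groups overlapped, with adjusted p-values of 0.413 and 0.824.

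Of 13 tested H2B genes 4 rose, and all 13 had a positive fold change. HIST3H2BB had 13.25, 11.81 and 11.8 TPM in knockdown libraries, against 5.42, 5.81 and 6.04 TPM in control libraries. Every knockdown value was above every control value, at a log2 fold change of 0.97 (SE 0.0838, adjusted p = 0.000964). HIST1H2BC had 10.31, 10.56 and 10.38 TPM in knockdown libraries, against 4.83, 4.8 and 5.95 TPM in control libraries. It rose by 0.89 on the log2 scale (SE 0.0971, adjusted p = 0.00235), its group means being 2.01-fold apart.

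HIST2H2BE, whose annotated transcript ends 1729 bases past the stem-loop, had 28.37, 27.85 and 29.29 TPM in knockdown libraries, against 16.52, 16.88 and 17.21 TPM in control libraries. The libraries of a group lay within 2 TPM of each other, and the gene rose by 0.72 (SE 0.0548, adjusted p = 0.000706). HIST1H2BK had 52.41, 52.21 and 47.85 TPM in knockdown libraries, against 40.19, 31.64 and 37.3 TPM in control libraries. Its groups did not overlap and it rose by 0.48 (SE 0.0934, adjusted p = 0.0192). The call of HIST1H2BK was lost without knockdown replicate 1, without knockdown replicate 2, without control replicate 3 and after a trend with gene length was removed (adjusted p over 17 settings 0.0117 to 0.069).

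A further 5 H2B genes had knockdown libraries wholly above control libraries without passing the test. HIST2H2BF had 5.03, 4.34 and 4.71 TPM in knockdown libraries, against 2.93, 3.09 and 3.71 TPM in control libraries (log2 fold change 0.43, adjusted p = 0.0544). HIST2H2BB had 3.31, 2.91 and 2.93 TPM in knockdown libraries, against 0.28, 2.34 and 0.06 TPM in control libraries (log2 fold change 1.29, adjusted p = 0.0875, and 0.00703 without control replicate 2). HIST1H2BD had 10.84, 11.96 and 13.55 TPM in knockdown libraries, against 10.48, 9.55 and 6.95 TPM in control libraries (adjusted p = 0.129). The control libraries varied more than the knockdown libraries in the last 2. HIST1H2BG averaged 1.36 ± 0.167 TPM in knockdown libraries and 0.763 ± 0.0709 TPM in control libraries (SD, n = 3 each, adjusted p = 0.137).

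HIST2H2BD, an annotated pseudogene whose exons overlap 1989 bases of HIST2H2BC on the other strand, had 18.79, 17.88 and 30.22 TPM in knockdown libraries, against 13.99, 12.83 and 17.69 TPM in control libraries (log2 fold change 0.53, adjusted p = 0.144). Its groups stood just apart, with knockdown replicate 3 the highest. No source used here says whether the authors counted by strand, so reads of such overlapping genes cannot be told apart. The same holds for HIST2H2BF, HIST2H2BB, HIST1H2BN and HIST1H2BE, whose exons also overlap another gene. Genes of other types share this limit. HIST2H4A overlaps HIST2H3C and HIST2H4B overlaps HIST2H3A, by 173 bases each, and HIST1H2AK overlaps HIST1H2BN by 393 bases. The H2B genes HIST1H2BJ, HIST1H2BN, HIST2H2BA and HIST1H2BE overlapped between the groups, with fold changes of 0.39, 0.15, 0.35 and 0.41 and adjusted p-values of 0.26, 0.647, 0.527 and 0.602.

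**Figure D4:**
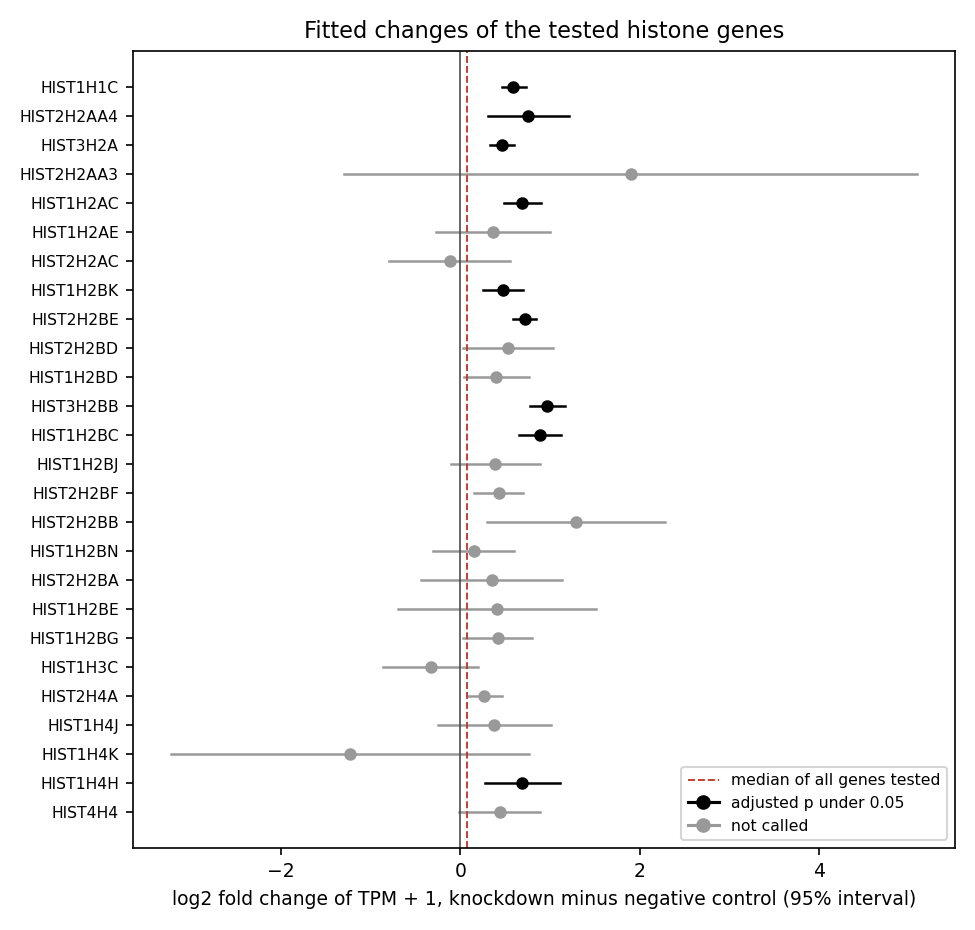
Log2 fold change of TPM + 1, knockdown minus negative control, with its 95% interval for the 26 tested genes, H1 at the top to H4 at the bottom. Black marks the 9 genes that rose and grey those not called, and the dashed line is the median of all tested genes, 0.08. The widest intervals are those of HIST2H2AA3 and HIST1H4K, near-identical copies of other members.

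Of the 14 H3 genes only HIST1H3C passed the filter. It had 1.03, 0.86 and 0.46 TPM in knockdown libraries, against 1.71, 0.89 and 1.13 TPM in control libraries. The groups overlapped (log2 fold change -0.33, SE 0.223, adjusted p = 0.372). HIST2H3A and HIST2H3C, which hold the same sequence, were listed with identical values of 0.82, 1.18 and 0.99 TPM in knockdown libraries, against 0.56, 0.64 and 0.6 TPM in control libraries. Summed they passed the filter, with no overlap between groups, at a log2 fold change of 0.44 (adjusted p = 0.11).

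Of 5 tested H4 genes 1 rose. HIST1H4H had 2.79, 1.85 and 2.94 TPM in knockdown libraries, against 1.29, 1.05 and 1.15 TPM in control libraries. All knockdown values were higher (log2 fold change 0.69, SE 0.174, adjusted p = 0.0423). This call held in 4 of 16 alternative settings and was lost without knockdown replicate 1 or 3 or without any 1 of the control replicates (adjusted p 0.0318 to 0.118).

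HIST2H4A had 20.57, 18.53 and 18.03 TPM in knockdown libraries, against 16.68, 15.21 and 14.9 TPM in control libraries. The groups did not overlap, with a log2 fold change of 0.27 (adjusted p = 0.0625). Added to HIST2H4B, which holds the same sequence, the level was 21.73, 19.89 and 18.81 TPM in knockdown libraries, against 16.68, 16.29 and 14.9 TPM in control libraries, and the sum rose by 0.32 (SE 0.0783, adjusted p = 0.04). HIST4H4 had 1.82, 1.96 and 1.31 TPM in knockdown libraries, against 0.66, 1.17 and 1.15 TPM in control libraries, without overlap (log2 fold change 0.44, adjusted p = 0.177).

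HIST1H4K had 5.06, 0 and 0 TPM in knockdown libraries, against 7.06, 4.43 and 0.78 TPM in control libraries (log2 fold change -1.23, adjusted p = 0.375), and all of its windows stand in HIST1H4J or another member. HIST1H4J averaged 3.58 ± 1.58 TPM in knockdown libraries and 2.43 ± 0.690 TPM in control libraries (log2 fold change 0.38, adjusted p = 0.383). Their sum was 7.38, 3.08 and 5.35 TPM in knockdown libraries, against 9.12, 7.66 and 2.79 TPM in control libraries, which overlapped (-0.20, adjusted p = 0.785). With all near-identical copies summed, 10 of 25 tested features rose, against 11.3% of all.

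Below the filter the levels were low and scattered. The 48 genes summed to 19.13, 18.18 and 15.98 TPM in knockdown libraries, against 10.92, 19.3 and 12.4 TPM in control libraries, with overlap, and 27 of the 41 detected were at 0 in at least 1 library. In 5 of the 41 all knockdown libraries were higher (5.92% of detected genes under the filter) and in 1 all were lower (2.16%). The 5 include HIST2H3A and HIST2H3C, which were listed with identical values and are not separate measurements. The highest of the 48 were HIST1H3E, at 1.24 ± 0.506 TPM in knockdown and 0.567 ± 0.179 TPM in control libraries, and HIST1H2BO, at 1.18 ± 0.687 TPM and 0.590 ± 0.401 TPM (SD, n = 3 each). HIST1H2AK, at 0.860 ± 0.433 TPM and 0.643 ± 0.418 TPM, overlapped between groups, as did both of those.

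HIST1H2AL was the gene with lower knockdown libraries, at 0, 0.24 and 0.51 TPM, against 0.96, 0.75 and 0.85 TPM in control libraries (adjusted p = 0.12 in a fit without the filter). HIST1H2BF had 0.62, 0.57 and 0.46 TPM in knockdown libraries, against 0.36, 0.42 and 0.32 TPM in control libraries (adjusted p = 0.305 in that fit). HIST1H2AJ had 0.61, 0.5 and 0.54 TPM in knockdown libraries and was listed at 0 in all control libraries. It was the 1 gene of the 48 called without the filter (adjusted p = 0.00399, where 3.68% of all genes rose and 1.1% fell). Since 80.9% of its windows stand in other members, its sum with HIST1H2AI is also given, 0.61, 0.5 and 1.12 TPM in knockdown libraries, against 0, 0 and 0.24 TPM in control libraries.

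Genes with an annotated sign of a tailed or spliced message passed the filter in a larger share than genes without one. A total of 32 genes have a spliced transcript, a poly(A) signal (AATAAA or its variant ATTAAA in the last 40 bases) or a transcript that runs at least 100 bases past the stem-loop. Of these, 20 (62.5%) passed the filter and 7 rose. Of the 42 genes with none of these marks, 6 (14.3%) passed. Of those 6, 2 rose, HIST1H1C and HIST1H2BK, whose annotated transcripts hold 642 and 381 bases of coding sequence only. In 32 of the 42 the annotation is coding sequence only, and 27 of these 32 were under the filter. Such an annotation leaves out the 3′ end of the message, so a missing mark there does not show an untailed message. The first class summed to 585.46, 501.73 and 527.96 TPM in knockdown libraries, against 330.58, 349.14 and 338.97 TPM in control libraries, a ratio of 1.59. The second class summed to 135.26, 130.18 and 121.93 TPM in knockdown libraries, against 97.45, 94.75 and 92.5 TPM in control libraries, a ratio of 1.36. Both sums were higher in every knockdown library. The first class includes the near-identical HIST2H2AA3 and HIST2H2AA4, which entered it by a poly(A) signal alone. Their transcripts end 35 bases after the stem-loop. This pair summed to 291.86, 231.13 and 228.38 TPM in knockdown libraries, against 144.06, 151.3 and 140.63 TPM in control libraries. The difference between the ratios of the classes was not tested. Annotation itself partly follows where tailed messages have been seen, so the classes and the levels are not independent.

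**Figure D5:**
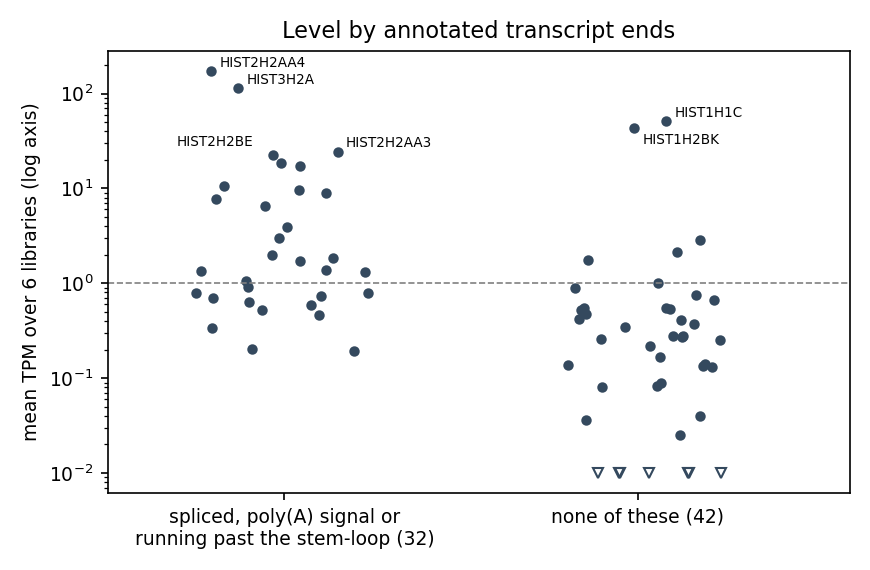
Mean TPM over the 6 libraries, on a log axis, for the 32 genes with a spliced transcript, a poly(A) signal or a transcript running past the stem-loop and the 42 genes with none. The dashed line is the filter of 1 TPM, passed by 20 and 6 genes, open triangles at the lower edge mark the 7 genes at 0 in every library, and horizontal scatter is only for display.

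Divergent H2A and H2B genes, whose starts face away from each other within 1000 bases, formed 12 pairs. Both genes were tested in 5 pairs, one in 2 and neither in 5, and both rose in 2 pairs. HIST3H2A and HIST3H2BB start 234 bases apart, and HIST1H2BC and HIST1H2AC 219 bases apart. Of the other called genes, HIST2H2BE and HIST1H2BK have a partner, which was at a lower level and not called. HIST2H2AC, 323 bases from HIST2H2BE, had 1.78, 0.74 and 2.63 TPM in knockdown libraries, against 1.47, 2.3 and 1.74 TPM in control libraries. HIST1H2AH, 331 bases from HIST1H2BK, was under the filter.

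Other genes within the clusters gave a local comparison. Between the outermost HIST1 genes 18 other genes were tested, of which 4 rose and none fell, with a median of 0.16. Of all tested genes, 11.3% rose and 3.47% fell, with a median of 0.08. The 4 were the butyrophilin genes BTN3A2, BTN2A2, BTN3A1 and BTN3A3 (log2 fold changes of 0.38, 0.45, 0.35 and 0.59). Whether their place in the cluster played a part was not tested. In the long-arm HIST2 span 2 other genes were tested and neither was called. By gene length, 5 of 15 histone genes under 1000 bases rose (7.44% of all tested genes of that length), as did 4 of 8 of 1000 to 2500 bases (13.0%) and 0 of 3 of 2500 bases or more (11.4%). The part of gene length in the result was tested only by removing a trend with it, which left 6 histone genes called.

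Of the 12 replacement histones outside the clusters, 11 were tested, 4 rose and 2 fell, with a median of 0.10. H1F0, the linker histone H1.0 of resting and differentiated cells, had 822.76, 812.07 and 812.9 TPM in knockdown libraries, against 407.9, 423.51 and 450.44 TPM in control libraries (log2 fold change 0.93, SE 0.0444, adjusted p = 0.000199). H1FX, another linker histone, had 364.62, 434.16 and 480.5 TPM in knockdown libraries, against 173, 178 and 193.35 TPM in control libraries (log2 fold change 1.22, SE 0.102, adjusted p = 0.000874). These linker genes stood far above HIST1H1C in level.

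H3F3B, one of the genes for H3.3, averaged 1134 ± 140 TPM in knockdown libraries and 826 ± 32.3 TPM in control libraries (SD, n = 3 each) and rose by 0.45 (adjusted p = 0.0172), while H3F3A, the other, averaged 183 ± 6.59 TPM and 171 ± 9.49 TPM (0.09, adjusted p = 0.306). H2AFJ rose by 0.37 (adjusted p = 0.00689). H2AFV fell by 0.27 (adjusted p = 0.0139) and CENPA, the H3 variant of centromeres, fell by 0.50 (adjusted p = 0.0216). H2AFZ averaged 381 ± 16.6 TPM in knockdown and 395 ± 0.387 TPM in control libraries (-0.05, adjusted p = 0.453).

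Of 22 genes of histone 3′ end formation and message decay, 20 were tested, 2 rose and none fell, a share near the 11.3% of all tested genes that rose, and the median was 0.04. SLBP had 52.08, 65.01 and 71.42 TPM in knockdown libraries, against 50.84, 51.22 and 48.95 TPM in control libraries. All knockdown values were higher, but the gene was not called (log2 fold change 0.30, SE 0.111, adjusted p = 0.119). Of the Sm-like proteins of the U7 particle, LSM10 rose by 0.26 (adjusted p = 0.0338), and LSM11 had a fold change of 0.33 (adjusted p = 0.0821). SYMPK, the cleavage scaffold symplekin, rose by 0.24 (adjusted p = 0.0357).

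ZNF473, a U7 cofactor, and CASP8AP2, a processing factor, had fold changes of -0.12 and 0.05 (adjusted p = 0.555 and 0.781). ERI1, the exonuclease that trims histone messages, was under the filter, at 0.23, 0.08 and 0.14 TPM in knockdown libraries, against 0.96, 0.49 and 0.56 TPM in control libraries. All its knockdown values were lower, and it was not among the genes tested.

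Of 10 tested factors of histone gene transcription, 2 rose and none fell (median 0.08). E2F1 rose by 0.45 (adjusted p = 0.0157) and CDC25A by 0.54 (adjusted p = 0.0449). NPAT, the coactivator of clustered histone genes at S phase, averaged 7.48 ± 0.377 TPM in knockdown libraries and 8.52 ± 1.02 TPM in control libraries (-0.16, adjusted p = 0.337). HINFP, which binds H4 promoters, averaged 27.7 ± 0.967 TPM in knockdown libraries and 23.3 ± 1.53 TPM in control libraries (0.24, adjusted p = 0.0572).

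Of 22 histone chaperones and deposition factors, all tested, 4 fell and none rose (median -0.06). SSRP1, a subunit of FACT, fell by 0.42 (adjusted p = 0.0028), HJURP, the CENPA chaperone, by 0.52 (adjusted p = 0.003), the importin IPO4 by 0.68 (adjusted p = 0.0193) and NASP, an H3 and H4 and linker histone chaperone, by 0.20 (adjusted p = 0.0253). Of 24 S phase genes, 4 fell and none rose (median -0.12), among them RRM1 by 0.46, CCNA2 by 0.56 and RRM2 by 0.31 (adjusted p = 0.00212, 0.00235 and 0.0427). Over all tested genes 11.3% rose and 3.47% fell. In 3 of the 24 S phase genes all knockdown libraries lay above all control libraries (26.8% of tested genes), and in 11 below (9.66%). The calls among clustered histone genes were thus all higher, and those among S phase genes all lower. Most tested genes of both sets were not called.

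Genes of poly(A) site cleavage and tail addition split, with 2 of 16 higher and 2 lower (median 0.09). PCF11, a cleavage factor, rose by 0.36 (adjusted p = 0.00954) and the nuclear poly(A)-binding protein PABPN1 by 0.21 (adjusted p = 0.0242). PABPC4 and PABPC1, which bind tails in the cytoplasm, fell by 0.38 and 0.36 (adjusted p = 0.00264 and 0.0102).

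Beside these, 29 RNAs that lack a tail were looked up. Of these 12 were tested with limma and none was called in either direction (unadjusted p under 0.05 for 3, RPPH1 and the identically listed RNU1-1 and RNVU1-18), and 13 were at 0 in all libraries. They summed to 2064, 1456 and 1583 TPM in knockdown libraries, against 1762, 2240 and 1670 TPM in control libraries, a ratio of 0.90 with overlap. Most of this sum was RN7SL1, at 923.74, 708.41 and 747.37 TPM in knockdown libraries, against 854.09, 990.09 and 781.86 TPM in control libraries, and RN7SL2, at 951.11, 661.28 and 770.52 TPM in knockdown libraries, against 793.95, 934.74 and 681.31 TPM in control libraries. The part of untailed RNA in the histone levels was not tested.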

How the data were processed

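The authors deposited 1 table of TPM per gene and library with gene names and a gene length column in bases. The tools named, per the submitters' processing notes, are fastp, HISAT and RSEM, without versions or roles, and the build is GRCm38.p5, a mouse build, although 58883 of 60027 gene IDs are human Ensembl IDs and 1144 are not. The build behind the values is therefore not settled, and no coordinate was read from the table. Positions, transcripts and exon overlaps came from GENCODE 29 (GRCh38), in which all 74 genes were found by Ensembl ID, and promoters from RefSeq (GRCh38.p14). How counting treated strand was not given in the sources used. TPM keeps no sequencing depth, so depth is unknown and precision is the spread within each group of 3.

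The test was limma 3.58.1 under R 4.3.3, applied to log2(TPM + 1) of genes averaging at least 1 TPM, its prior spread being a trend in mean level, no covariates, two-sided, Benjamini-Hochberg adjusted over all genes tested and called under 0.05. The fit was tested on simulated data, drawn independently for each gene and library from that gene's mean and spread. Such data cannot test scaling between libraries or reads shared by near-identical copies. A poly(A) signal was searched in the last 40 bases of a transcript, shared windows were 100 bases long and counted among the 74 genes only. One list symbol, ZCCHC6, was not matched in the table. The values of 1 S phase gene are not reported here. Named were all tested members, the 5 highest under the filter and those of at least 0.2 TPM there without overlap, fixed genes of the lists and up to 4 with the smallest p in each list on histone biology, plus partners in divergent pairs. The neighbours called in the HIST1 span, the untailed RNAs and the set-aside pseudogenes were named after their values were seen, as was the H4 sum without a pair. The members and lists were chosen with earlier results of these data known. Alternatives were the pseudocount (0.1), the filter (none, or 5 TPM), scaling, gene length trend, prior spread, array weights, replicate block, each library left out, and near-identical copies summed.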

Additional observations from a re-analysis of the deposited data

How the results depend on the processing

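Clustered histone genes called higher numbered 9 in the reported fit and 6 to 10 in the alternatives, 6 to 8 when 1 library was left out, and none was called lower in any. HIST1H1C, HIST3H2A, HIST1H2AC, HIST2H2BE, HIST3H2BB and HIST1H2BC were called in all 17 alternatives. The ratio of summed TPM was 1.441 to 1.577, and the median of the tested histone genes stayed above that of all genes in each scaling (0.37 against -0.00211 with median ratio scaling, 0.318 against -0.0144 with quantile normalization). Over all genes, 1780 were called higher and 547 lower. Without the filter these were 1136 and 339, with median ratio scaling 1012 and 997, with quantile normalization 1001 and 980, without mitochondrial and ribosomal protein genes 1055 higher, with the gene length trend removed 1058 and 979, and with a library left out 901 to 1300 and 263 to 378. With the replicate block they were 1123 and 343, HIST1H4H lost its call (adjusted p = 0.0728) and HIST2H2BD gained one (adjusted p = 0.0398). Libraries of the same number showed no shared deviation over the tested genes (r = 0.0172, -0.012 and 0.0448). With 3 libraries per group this does not settle whether the numbers mark pairs. Direction turned for 3 uncalled genes: HIST1H2BN (-0.0009033 without knockdown replicate 1, up to 0.2895 over the alternatives), HIST2H2AC (0.1738 without knockdown replicate 2, down to -0.3566) and HIST1H4J (-0.2045 when summed with HIST1H4K). The SH3PXD2A-AS1 difference was -0.243 TPM and -0.133 to -0.358 TPM with a library left out. The cause of these changes was not tested. With depth unknown, levels under 1 TPM carry no counting interval.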

Other observations

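Of the 15 clustered names set aside as pseudogenes, HIST2H3PS2 alone reached 1 TPM in any library, with 1.56, 1.61 and 2.42 TPM in knockdown libraries, against 0.57, 0.3 and 1.76 TPM in control libraries, which overlapped. Only 2 others, HIST1H1PS1 and HIST1H2APS4, were above 0 in any library.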
